A study of Rattus norvegicus with 10 samples.

Results

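The 6 circadian clock genes were examined in whole kidneys of water-deprived and control rats. The genes were taken by Ensembl identifier from the deposited count table, each kept where its chromosome matched the given one: Arntl (ENSRNOG00000014448), Clock (ENSRNOG00000002175), Per1 (ENSRNOG00000007387), Per2 (ENSRNOG00000020254), Nr1d1 (ENSRNOG00000009329) and Dbp (ENSRNOG00000021027). These are 6 of the 32623 genes of the table, and all 6 passed the filter on low counts that left 15047 genes for testing. The rats were males of the outbred Sprague-Dawley strain, and the stated purpose was to find genes that respond to osmotic challenge. The 5 control rats drank freely, and the 5 dehydrated rats had no water for 72 hours (3 days). No genetic change or drug is given for either group, and the age of the rats is not given in the sources used here. Each rat gave 1 library of polyadenylated RNA. All rats were killed between 10 am and 12 pm, and neither the light schedule nor the time at which each rat was killed within that window is given in the sources used here. Kill time within the window and treatment therefore cannot be told apart.

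The mammalian clock is a transcriptional feedback loop that runs in nearly every cell of the body, kidney tubule cells included. The proteins CLOCK and BMAL1, the product of Arntl, bind E-boxes in DNA and activate the Per and Cry genes, the nuclear receptor gene Nr1d1 and the output gene Dbp. PER and CRY proteins then inhibit CLOCK and BMAL1, and REV-ERB alpha, the product of Nr1d1, represses Arntl through ROR response elements. In the kidney the clock is known for the daily rhythm of sodium, potassium and water excretion, and Per1 is known as an aldosterone-induced gene that acts on expression of the epithelial sodium channel.

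The promoter sequences of the genes are shown first because E-boxes, D-boxes and ROR elements are the sites through which the loop is wired. The RefSeq promoter table (assembly GRCr8) matched all 6 genes by symbol or synonym, with Arntl listed as Bmal1, and gave 8 windows from 250 bases before to 50 bases after a start, with a pair of windows each for Clock and Nr1d1. The 250 bases before the start are printed for Per1, the gene that changed, and for the genes in which a motif was found. For Nr1d1 only the inner window is printed, although its outer window also held a match, described below. Motif matches are in capitals.
Per1, chr10:54304126-54304375, GRCr8, plus strand: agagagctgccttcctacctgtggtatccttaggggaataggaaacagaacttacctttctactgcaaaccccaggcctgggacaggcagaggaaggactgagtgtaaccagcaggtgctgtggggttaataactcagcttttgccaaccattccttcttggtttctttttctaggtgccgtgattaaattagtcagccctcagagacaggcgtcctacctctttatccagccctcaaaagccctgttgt
Per2, chr9:99496994-99497243, GRCr8, minus strand: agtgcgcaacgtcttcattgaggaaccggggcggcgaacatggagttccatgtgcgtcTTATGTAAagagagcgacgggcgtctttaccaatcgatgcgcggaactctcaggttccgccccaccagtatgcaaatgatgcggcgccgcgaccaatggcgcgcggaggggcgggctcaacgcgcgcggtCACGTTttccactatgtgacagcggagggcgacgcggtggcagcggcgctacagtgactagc
Nr1d1, inner window, chr10:84229455-84229704, GRCr8, minus strand: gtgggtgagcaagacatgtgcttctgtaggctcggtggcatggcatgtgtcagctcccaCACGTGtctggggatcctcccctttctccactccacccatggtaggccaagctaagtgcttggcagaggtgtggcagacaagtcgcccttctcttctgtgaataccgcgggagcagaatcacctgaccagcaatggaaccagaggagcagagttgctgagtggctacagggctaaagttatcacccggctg
Arntl, chr1:176766078-176766327, GRCr8, plus strand: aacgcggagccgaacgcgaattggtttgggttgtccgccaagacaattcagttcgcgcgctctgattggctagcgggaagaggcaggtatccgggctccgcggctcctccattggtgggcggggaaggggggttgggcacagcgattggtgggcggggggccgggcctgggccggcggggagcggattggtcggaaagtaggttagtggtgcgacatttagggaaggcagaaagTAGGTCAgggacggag

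Exact matches on either strand were sought for 6 motifs: the E-box CACGTG, the E'-box CACGTT, the D-box TTATGNAA, the ROR element cores TAGGTCA and TGGGTCA, and the cyclic AMP response element TGACGTCA. No matches overlapped one another. The Per2 window held an E'-box whose leftmost base lies 62 bases before the start and a D-box 192 bases before it. The inner Nr1d1 window held the only E-box among the 8 windows, 191 bases before the start, and its outer window held an E'-box on the opposite strand, 174 bases before the start. The Arntl window held a TAGGTCA core 16 bases before the start. Among all 33469 promoter windows of the same length, 6.42% held the E-box, 4.83% the E'-box, 3.66% the D-box, 2.63% TAGGTCA, 4.09% TGGGTCA and 1.83% the cyclic AMP response element. The Per1 window, the Dbp window and both Clock windows held none of these letters. The Per1 window lies inside the RefSeq span of the gene, so it belongs to a start within that span, and promoter sequence further upstream was not analysed here. A match is a description of the letters and not evidence of binding.

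Total assigned fragments were 29454213 to 35898689 per library, and the 6 genes had 154 to 5890 fragments each in a library. Levels are given as CPM (counts relative to the library's total) scaled between libraries by TMM. Changes were tested with edgeR's quasi-likelihood test on all 15047 genes, and a gene was called at a Benjamini-Hochberg adjusted p below 0.05. The libraries numbered 6 carry in their names the letter of the other group, so the results are also given without them. None of the 6 genes shares exons with another annotated gene on its strand. Nr1d1 shares exon sequence with 1 gene on the opposite strand. That gene averaged 2790 fragments per library, against 154 to 472 for Nr1d1. The fragments were counted by strand, and how many were assigned to the wrong strand was not measured. Levels are of whole kidney, so fewer cells of a type and less RNA per cell cannot be told apart. The tissue label was not checked against marker genes, since no table used here pairs other identifiers with symbols.

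Of the 6 clock genes, Per1 alone was called. It rose 3.56-fold after water deprivation, while Per2 had a lower mean, Nr1d1 a higher mean, and the intervals of Arntl, Clock and Dbp included no change. Over all tested genes 8.47% were called, 4.70% higher and 3.77% lower, beside which 1 call in 6 genes is a result about Per1 and not about the group of genes. The median absolute log2 fold change was 0.30 over the 6 genes and 0.10 over all tested genes, and the median signed change was -0.06 against -0.00475. The genes were chosen with results of these data known, and no test was made over the list.

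**Figure D1:**
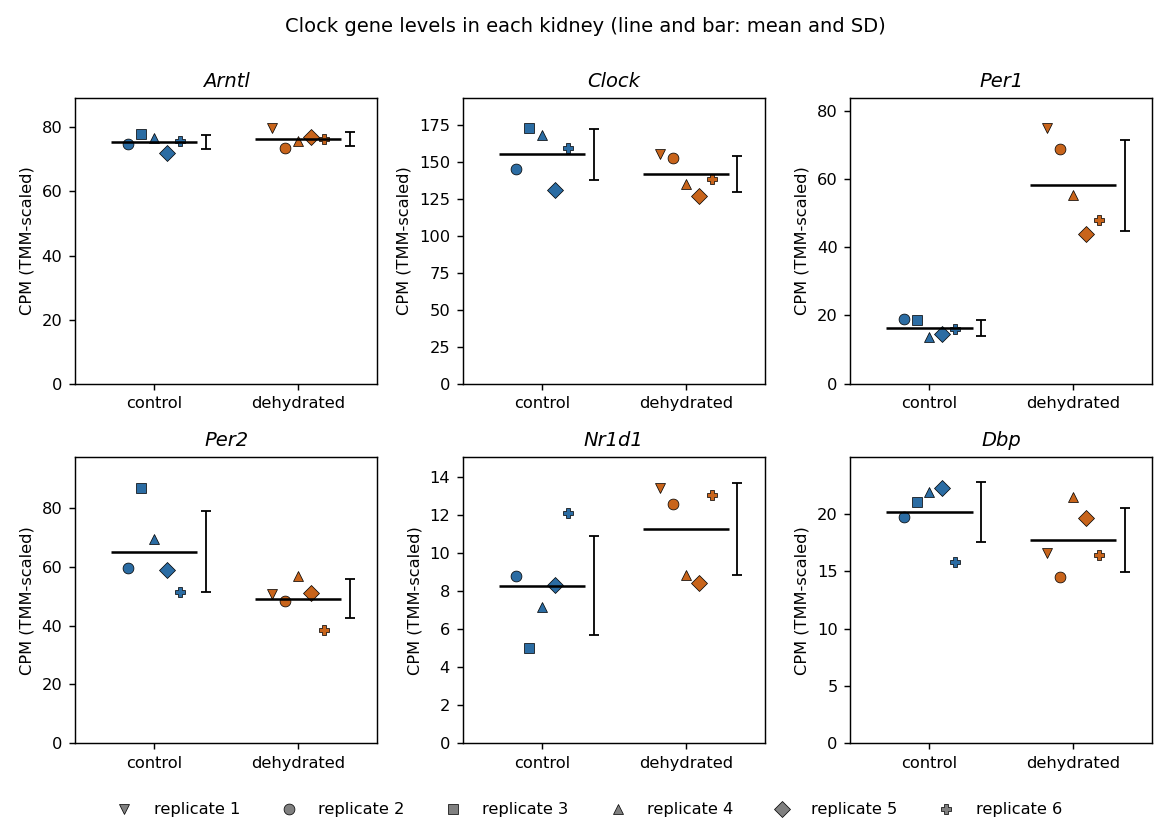
TMM-scaled CPM (vertical axes, from 0) of each clock gene in 5 control and 5 dehydrated kidneys, with the mean as a line, the SD as a bar and the replicate number as the symbol. The 5 dehydrated kidneys lie above all controls for Per1, while the groups overlap for the other genes.

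Per1 encodes a period protein of the repressing limb of the clock and is known to be induced quickly by light, hormones and other signals. Its gene spans chromosome 10 from 55687050 to 55695994 on the plus strand of Rnor_6.0, with 22 annotated exon ranges. In control kidneys Per1 was at 18.9, 18.6, 13.7, 14.5 and 16 CPM in replicates 2, 3, 4, 5 and 6. In dehydrated kidneys it was at 74.8, 68.8, 55.2, 43.7 and 47.9 CPM in replicates 1, 2, 4, 5 and 6. The lowest dehydrated kidney was thus above the highest control kidney, and the groups did not overlap, as was the case for 7.87% of all tested genes. The mean was 16.3 ± 2.34 CPM in control and 58.1 ± 13.3 CPM in dehydrated kidneys (SD, n = 5). The log2 fold change was 1.83 (SE 0.15, 95% interval 1.51 to 2.15, edgeR adjusted p = 1.06e-05), which is 3.56-fold with an interval of 2.86 to 4.43. Among the 15047 tested genes this was the 18th largest rise and the 14th smallest p. Without both libraries numbered 6 the log2 fold change of Per1 was 1.88 (edgeR adjusted p = 0.000218).

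Per2 is the other period gene measured here, and its protein shares the repressing role of PER1. The gene lies on chromosome 9 from 98555169 to 98597359 on the minus strand, with 23 exon ranges. Control kidneys had 59.5, 86.8, 69.4, 58.8 and 51.4 CPM of Per2 in replicates 2, 3, 4, 5 and 6. Dehydrated kidneys had 50.6, 48.4, 56.8, 50.9 and 38.6 CPM in replicates 1, 2, 4, 5 and 6. In 4 of 5 dehydrated kidneys Per2 was below the lowest control, and dehydrated replicate 4 lay within the control range. The mean was 65.2 ± 13.7 CPM in control and 49.1 ± 6.65 CPM in dehydrated kidneys (SD, n = 5). The log2 fold change was -0.41 (SE 0.13, 95% interval -0.69 to -0.13), with an unadjusted p of 0.00734 and an edgeR adjusted p of 0.0723, so Per2 did not pass the threshold. Its call depended on the test and on 1 library: the adjusted p was 0.0247 with DESeq2, 0.0814 with limma voom, and 0.0391 in edgeR without control replicate 6. Without both libraries numbered 6 the log2 fold change was -0.41 (edgeR adjusted p = 0.0635).

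Nr1d1 encodes REV-ERB alpha, a nuclear receptor that represses Arntl. The gene lies on chromosome 10 from 86683875 to 86690815 on the minus strand, with 9 exon ranges. It was the lowest of the 6 genes in CPM, with an SD of log2 CPM of 0.46 between control kidneys and 0.33 between dehydrated kidneys. Control kidneys had 8.80, 5.00, 7.15, 8.33 and 12.1 CPM in replicates 2, 3, 4, 5 and 6, and dehydrated kidneys had 13.4, 12.6, 8.82, 8.39 and 13 CPM in replicates 1, 2, 4, 5 and 6. In all, 3 dehydrated kidneys lay above every control, and dehydrated replicates 4 and 5 lay inside the control range. The mean was 8.28 ± 2.59 CPM in control and 11.2 ± 2.43 CPM in dehydrated kidneys (SD, n = 5). The log2 fold change was 0.44 (SE 0.20, 95% interval 0.01 to 0.88, unadjusted p = 0.0458, edgeR adjusted p = 0.222). Nr1d1 was not called, and its interval reaches from almost no change to 1.84-fold higher. Without both libraries numbered 6 its log2 fold change was 0.56 (edgeR adjusted p = 0.131).

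Dbp encodes a PAR bZIP transcription factor that carries the clock's rhythm to output genes through D-boxes, and it is known as one of the most strongly rhythmic transcripts of peripheral tissues. The gene lies on chromosome 1 from 101687855 to 101692846 on the plus strand, with 9 exon ranges. Dbp was at 19.8, 21.0, 21.9, 22.3 and 15.8 CPM in control replicates 2, 3, 4, 5 and 6, and at 16.6, 14.5, 21.4, 19.6 and 16.4 CPM in dehydrated replicates 1, 2, 4, 5 and 6. The groups overlapped, and dehydrated replicate 2 alone lay below every control. The mean was 20.2 ± 2.60 CPM in control and 17.7 ± 2.79 CPM in dehydrated kidneys (SD, n = 5). The log2 fold change was -0.19 (SE 0.11, 95% interval -0.43 to 0.06, edgeR adjusted p = 0.380), and it was -0.24 (edgeR adjusted p = 0.263) without both libraries numbered 6. As a change relative to control, the interval extends from -26.0% to 4.02%.

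The activators Arntl and Clock showed the smallest differences. Arntl encodes BMAL1, the partner of CLOCK and the gene without which the loop stops. It lies on chromosome 1 from 178039063 to 178137465 on the plus strand, with 21 exon ranges. Control kidneys had 74.9, 77.9, 76.6, 72.0 and 75.9 CPM of Arntl in replicates 2, 3, 4, 5 and 6, and dehydrated kidneys had 79.7, 73.6, 75.7, 77.0 and 76.4 CPM in replicates 1, 2, 4, 5 and 6. The 10 kidneys thus fell in 1 narrow band, with means of 75.5 ± 2.23 CPM in control and 76.5 ± 2.20 CPM in dehydrated kidneys (SD, n = 5). The fitted log2 change was 0.02 (SE 0.04, edgeR adjusted p = 0.872), and its 95% interval runs from a change of -5.24% to one of 8.36%. A change of Arntl as large as the fitted change of any of Per1, Per2, Nr1d1 or Dbp lies outside that interval. Without both libraries numbered 6 the log2 fold change was 0.02 (edgeR adjusted p = 0.883).

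Clock encodes the histone acetyltransferase that pairs with BMAL1, and lies on chromosome 14 from 34446616 to 34502218 on the plus strand, with 24 exon ranges. Clock was at 144.9, 172, 168, 131 and 159 CPM in control replicates 2, 3, 4, 5 and 6, and at 155, 152, 135, 127 and 139 CPM in dehydrated replicates 1, 2, 4, 5 and 6. The groups overlapped over most of their range. The mean was 154.9 ± 17.2 CPM in control and 142 ± 12.0 CPM in dehydrated kidneys (SD, n = 5). The fitted log2 change was -0.13 (SE 0.08, edgeR adjusted p = 0.399), and its 95% interval runs from a change of -19.1% to one of 3.15%. Without both libraries numbered 6 it was -0.12 (edgeR adjusted p = 0.559).

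**Figure D2:**
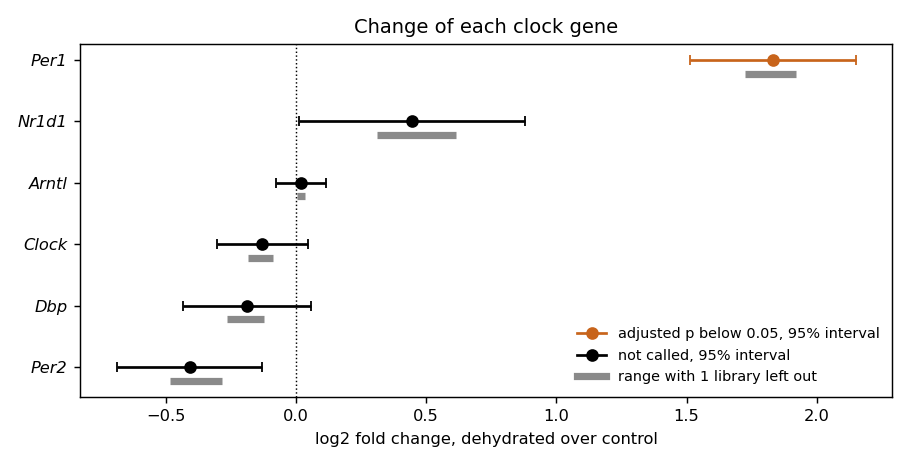
Log2 fold change of each clock gene, dehydrated over control (horizontal axis), with its 95% interval as a thin bar and the range of values with 1 library left out as a grey bar. Per1 stands at 1.83 and stays between 1.72 and 1.92 with any library left out, and the intervals of Arntl, Clock and Dbp include 0.

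The authors' deposited table gives their own DESeq2 comparison of the same libraries, in which 11.4% of the genes with an adjusted p were below 0.05. In the authors' deposited table Per1 had a log2 fold change of 1.83 (SE 0.15) and an adjusted p of 3.83e-33. Per2 had -0.41 (SE 0.13) with an adjusted p of 0.0245 in the authors' deposited table, and is thus counted as changed there and not by edgeR. For Nr1d1 the authors' deposited table gives 0.44 (SE 0.20) with an adjusted p of 0.146. Dbp, Clock and Arntl have adjusted p-values of 0.388, 0.417 and 0.881 in the authors' deposited table. To 2 decimals the log2 fold changes of the 6 genes in the authors' deposited table are those of edgeR, while the unadjusted p of Per2 is 0.00228 in the authors' deposited table and 0.00734 in edgeR.

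**Figure D3:**
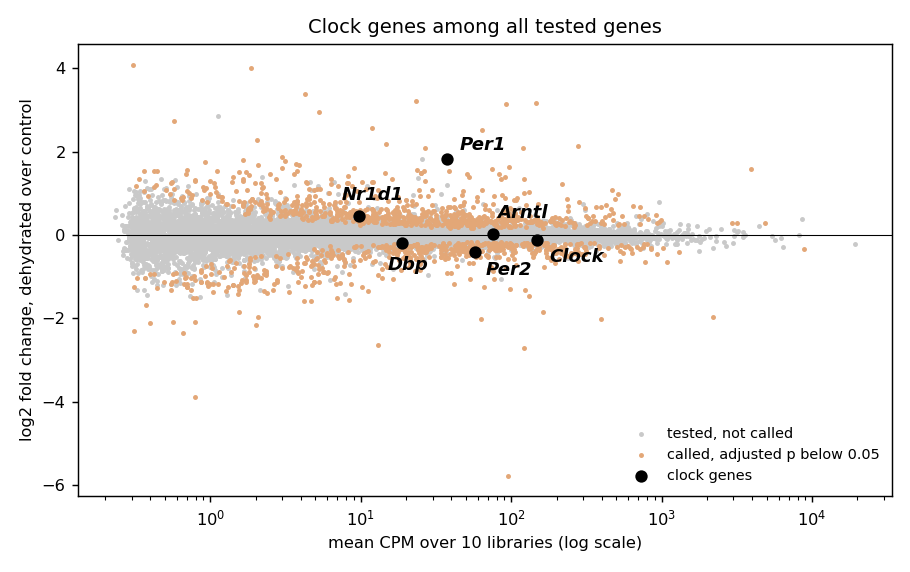
Log2 fold change, dehydrated over control (vertical axis), against mean CPM over 10 libraries (horizontal axis, log scale) for all 15047 tested genes, with the called genes in orange and the 6 clock genes as large black points. Per1 stands among the largest rises at its level, and the other clock genes lie within or at the edge of the cloud of genes that were not called.

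Levels of different genes were compared per kilobase of exon, as TMM-scaled CPM per kb. The length used is the summed annotated exonic length, and the lengths of the transcripts expressed were not measured. The order depends on that length: in CPM alone, Clock was above Arntl, at means of 154.9 against 75.5 in control kidneys. In control kidneys Arntl was highest at 25.4 ± 0.749, followed by Clock at 16.4 ± 1.82, Dbp at 11.8 ± 1.53, Per2 at 11.3 ± 2.36, Per1 at 4.03 ± 0.579 and Nr1d1 at 3.25 ± 1.02 CPM per kb (SD, n = 5). The 2 neighbouring pairs in that order, Dbp with Per2 and Per1 with Nr1d1, overlapped in their control ranges, while Arntl and Clock, Clock and Dbp, and Per2 and Per1 were apart. In dehydrated kidneys the order was Arntl at 25.7 ± 0.741, Clock at 15.0 ± 1.27, Per1 at 14.3 ± 3.30, Dbp at 10.4 ± 1.64, Per2 at 8.49 ± 1.15 and Nr1d1 at 4.41 ± 0.954 CPM per kb (SD, n = 5). Per1 thus stood beside Nr1d1 at the bottom of the order in control kidneys and beside Clock in dehydrated kidneys, where their ranges (10.8 to 18.5 for Per1 and 13.5 to 16.5 CPM per kb for Clock) overlapped. In dehydrated kidneys the ranges of Per1 and Dbp and of Dbp and Per2 also overlapped, and those of Arntl and Clock and of Per2 and Nr1d1 did not.

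Ratios within a kidney do not depend on the scaling between libraries. They are given without a test. The ratio of Per1 to Per2, both per kb, was 0.282 to 0.452 in control and 1.23 to 2.11 in dehydrated kidneys. Per kb, Per1 was therefore below Per2 in every control kidney and above Per2 in every dehydrated one. Without division by length the ratio was 0.198 to 0.317 in control kidneys. It was 0.971 and 0.858 in dehydrated replicates 4 and 5, and 1.24 to 1.48 in the other dehydrated kidneys. In replicates 4 and 5 the higher level of Per1 thus rests on the annotated exon lengths, 4049 bases for Per1 and 5783 for Per2. The ratio of Per1 to Arntl per kb was 0.131 to 0.185 in control and 0.417 to 0.689 in dehydrated kidneys, again with no overlap. Per2 to Arntl was 0.348 to 0.572 in control and 0.260 to 0.386 in dehydrated kidneys, with overlap, and Dbp to Arntl was 0.365 to 0.540 and 0.343 to 0.495. Nr1d1 to Arntl was 0.0749 to 0.186 in control and 0.127 to 0.199 in dehydrated kidneys. Clock to Arntl was 0.572 to 0.698 in control and 0.520 to 0.653 in dehydrated kidneys, the narrowest of these ranges relative to its level.

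**Figure D4:**
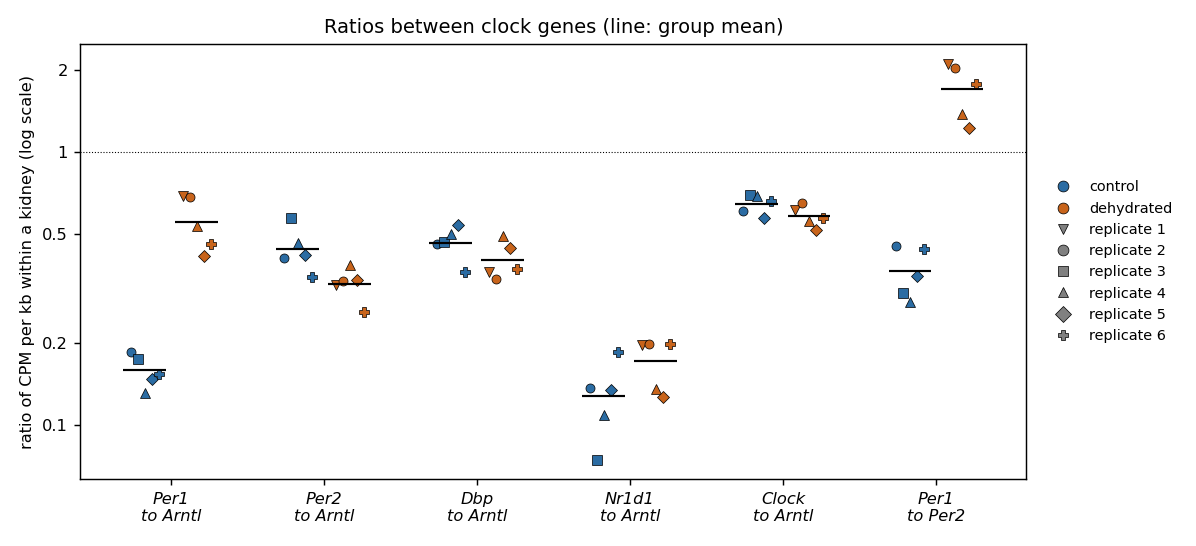
Ratio of CPM per kb between pairs of clock genes within each kidney (vertical axis, log scale), in control and dehydrated kidneys, with the group mean as a line and the replicate number as the symbol. The groups are apart for Per1 to Arntl and for Per1 to Per2, where the ratio is 0.282 to 0.452 in control kidneys and 1.23 to 2.11 in dehydrated ones, and they overlap for the other pairs.

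The clock genes differed widely in how much they varied between kidneys of the same group. The pooled within-group SD of log2 CPM was 0.40 for Nr1d1, 0.28 for Per1, 0.25 for Per2, 0.21 for Dbp, 0.15 for Clock and 0.04 for Arntl. Counting error alone, from the mean counts, would give 0.08 for Nr1d1 and 0.03 for Arntl. Among tested genes with a mean CPM within 2-fold of its own, Nr1d1 varied more than 97.1% of 3436 genes, Per1 more than 96.9% of 4934 and Per2 more than 96.6% of 4491. Dbp varied more than 88.4% of 4482 such genes and Clock more than 81.5% of 2349. Arntl was at the other end, with an SD above that of only 1.63% of 3976 genes of like level and of 0.758% of all tested genes. The animals' kill times within the window are not known, and their part in this spread was not tested.

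**Figure D5:**
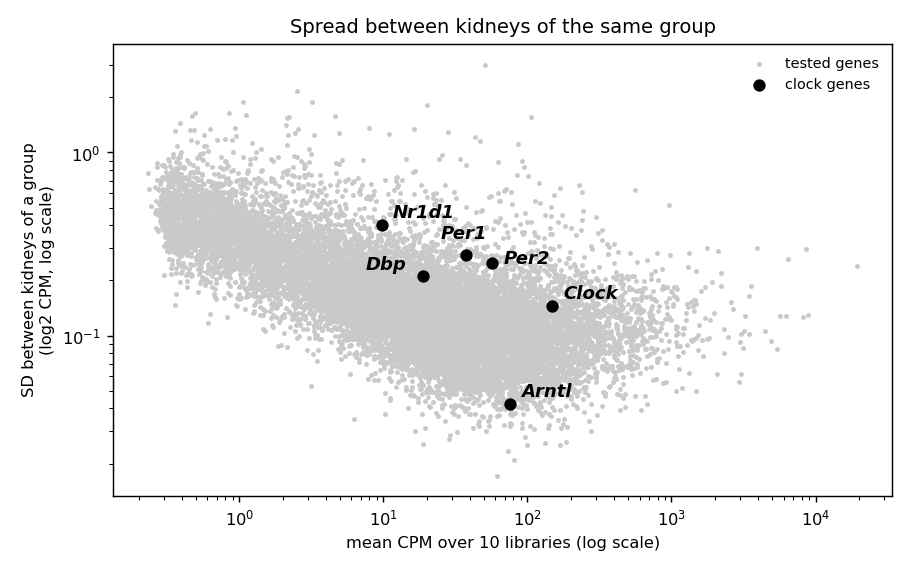
Pooled SD between kidneys of the same group on the log2 CPM scale (vertical axis, log scale) against mean CPM (horizontal axis, log scale), for all tested genes in grey and the clock genes in black. Nr1d1, Per1 and Per2 lie along the upper part of the cloud at their levels, and Arntl lies at its lower edge with an SD of 0.04.

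The order of the kidneys within a group is given as a description, picked after the values were seen, since some kidney must hold each place. Control replicate 3 had the highest Per2, Clock and Arntl and the lowest Nr1d1 of its group, and control replicate 6 had the highest Nr1d1 and the lowest Per2 and Dbp. Among dehydrated kidneys, replicates 4 and 5 had the highest levels of Per2 and Dbp and the lowest of Nr1d1. The highest and lowest Nr1d1 levels differed 2.42-fold in control kidneys and 1.6-fold in dehydrated ones. For Arntl the same ratio was 1.08 in each group. With 5 kidneys per group, no correlation between the genes was computed.

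The likeness of 2 genes was measured as the root mean square difference between their log2 CPM profiles over the 10 libraries, each profile centred on its own mean. For Per1, the gene with the largest rise among the 6, the most similar profile among the 12544 other genes at or above a mean of 2 CPM was that of ENSRNOG00000003348 (chromosome 10, 46330368 to 46332172, minus strand), at 0.32 on the log2 scale, where a flat profile would be at 0.94. That gene was at 4.46 ± 1.09 CPM in control and 13.6 ± 2.29 CPM in dehydrated kidneys (SD, n = 5). Its edgeR adjusted p was 8.08e-05 at a log2 fold change of 1.61 (SE 0.16). Because the gene was picked for its likeness to Per1 across both groups, the choice itself favoured a rise. This p and fold change therefore describe the picked gene and are not a separate result. The profile most like that of Per2, the gene with the lowest log2 fold change among the 6, was that of ENSRNOG00000034190 (chromosome 6, 138054662 to 138662511, minus strand), at 0.13, where a flat profile would be at 0.30. It was not called (log2 fold change -0.27, SE 0.17, edgeR adjusted p = 0.413). This gene too was picked across both groups, so the direction of its change is not a separate result. Among the clock genes themselves, the one most like Per1 was Nr1d1, which ranked 498th of 12549 genes. It was at 0.78, nearer to the 0.94 of a flat profile than to the 0.32 of the most similar gene. The one most like Per2 was Dbp, at 0.22 against 0.30 for a flat profile, which ranked 150th of 12549. Per2 ranked 12123rd in likeness to Per1. These ranks also include the difference between groups, which was a rise for Per1. Nr1d1 had a higher mean, and Per2 and Dbp a lower mean, in dehydrated kidneys, without a call in the main test. No table used here pairs these identifiers with symbols, so the remaining genes of the clock, among them the Cry genes and Per3, were not analysed here.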

How the data were processed

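Polyadenylated RNA of whole kidney from 5 control and 5 dehydrated rats was compared. The deposited counts are raw fragment counts per Ensembl gene, made by the authors with featureCounts 1.6.2 in paired, reverse-strand mode (setting 2) on Rsubread alignments with the Ensembl 103 annotation of Rnor_6.0, per the file headers. The aligner's version is not given in the sources used here, nor is the trimmer. The authors' deposited comparison holds log2 fold changes with standard errors and p-values. It came from DESeq2, per the submitters' processing notes. Its 10 columns of values per sample were not used.

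Libraries were grouped by title. Each library compared with others of its group differed by more than counting noise (chi-square per degree of freedom 13.3 to 32.0 over 20 pairs). Kidneys were taken per animal, per the labels' protocols, and each sample was counted as 1 animal. The main test was edgeR 4.0.16 (glmQLFit, glmQLFTest) in R 4.3.3 with TMM and filterByExpr (minimum count 10, minimum total 15). P-values were adjusted by Benjamini-Hochberg over all 15047 tested genes. The SE is the absolute log2 fold change divided by the square root of F. Intervals use the fit's degrees of freedom. Log2 CPM has a prior count of 2. The script was tested on simulated data. DESeq2 1.42.0, limma 3.58.1, another scaling, no filter, left-out libraries and a replicate block were alternatives.

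The 6 genes, the lists and the tests were chosen with earlier results of these data known. The rule for named genes took the 6 genes and, for the largest positive and the largest negative change among them, the gene most like it. Of the Ensembl identifiers, 0 are paired with a symbol in the RefSeq table (GRCr8), so the planned lists of further clock genes, glucocorticoid-responsive genes and cell type markers were not analysed here.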

Additional observations from a re-analysis of the deposited data

How the results depend on the processing

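Per1 kept its direction and its call under all 18 alternatives run, with log2 fold changes of 1.72 to 1.92 and an adjusted p of at most 0.000218. Among these, the adjusted p below 0.1 is the main fit at a looser threshold, where a called gene cannot lose its call. Arntl (0.00188 to 0.03), Clock (-0.19 to -0.09), Nr1d1 (0.23 to 0.62) and Dbp (-0.27 to -0.12) kept their direction and were called under none of them. Per2 kept its direction (-0.48 to -0.28 with 1 library left out) and was called in 4 alternatives, which raised the number of called clock genes from 1 to 2: the DESeq2 Wald test (-0.41, adjusted p = 0.0247), edgeR without control replicate 6 (-0.48, adjusted p = 0.0391), an adjusted p below 0.1 (-0.41, adjusted p = 0.0723), and the replicate block. Over its alternatives the adjusted p of Per2 ran from 0.0247 to 0.183.

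Over all genes, leaving out 1 library gave 879 to 1382 called genes against 1275, with 485 to 763 called higher and 378 to 619 called lower (fewest without control replicate 4), and 1 or 2 called clock genes. The fit that leaves out both libraries numbered 6 called 461 genes higher. With the replicate number as a block over the 4 numbers present in both groups, 772 genes were called, 431 higher and 341 lower, and 2 clock genes. In that block fit Per2 was at -0.30 (adjusted p = 0.0301). The same 8 libraries without the block, a comparison added after the data were seen, gave -0.30 (adjusted p = 0.183). Deviations of same-numbered libraries correlated across genes at -0.07 to 0.17, and 1 of 4 numbers exceeded 0.1. Differently numbered libraries were not compared in this way, so these values cannot decide whether the numbers pair animals. The labels do not say that they do, and the main test did not pair them. The motif matches were the same in the 250 bases before the start alone. For Nr1d1, the clock gene with the fewest counts, counting error alone would give an SD of 0.08 on the log2 scale, against 0.40 between kidneys of a group. No set of 5 values among the 12 examined held a kidney beyond the Dixon limit of 0.71, a rule for single values far from the rest. With 5 values that limit marks only a large gap, so smaller deviations of 1 kidney are not excluded.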
